A study of Mus musculus with 20 samples.

Results

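The genes described here carry out antigen processing and presentation by the major histocompatibility complex (MHC) in mouse liver. They were chosen by name: the class II chains H2-Aa, H2-Ab1 and H2-Eb1 with the invariant chain Cd74, the class I light chain B2m, the peptide transporter genes Tap1 and Tap2, the loading factor Tapbp, and the regulators Ciita and Nlrc5. A probe set, the group of short probes that reports one transcript, was a member when the platform annotation gave it exactly 1 symbol and that symbol was among these 10 genes. This gave 22 probe sets of 10 genes, out of 34945 probe sets of 18193 genes with 1 symbol and 45101 probe sets on the array.

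The study asked how an extract of maple syrup, named MSXH in the labels, acts on the liver of mice on a high-fat diet. All 20 mice were male C57BL/6J, the inbred laboratory strain, 8 weeks old, and all were fasted for 16 h before the liver was taken. For 4 weeks 10 of them ate a diet with 45 kcal% fat (HFD), and the other 10 ate that diet with 0.02% MSXH added (MSXH). Both groups thus shared the high-fat diet and differed in the extract. The labels also describe a low-fat diet and a higher dose of the extract, which are not analysed here. Whole-liver RNA of each mouse went onto 1 Affymetrix 3' expression array, and the number of mice limits the precision.

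Class II molecules are pairs of an alpha and a beta chain that show peptides from engulfed proteins to CD4 T cells. The invariant chain, Cd74, fills their groove and guides them to endosomes. Class II genes are active mainly in professional presenting cells, which in liver include Kupffer cells, the resident macrophages, dendritic cells and B cells. Class I molecules show peptides from inside the cell to CD8 T cells on nearly all cell types. Their heavy chain needs the light chain B2m, and their peptides are pumped into the endoplasmic reticulum by the transporter of Tap1 and Tap2, to which tapasin (Tapbp) tethers the empty molecule. Ciita is the master coactivator of class II genes, and Nlrc5, a related protein, is that of class I genes. Both act through promoter elements named the X and Y boxes, bound by RFX, CREB-type and NF-Y factors, and interferon gamma raises both arms of the pathway.

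Most of the members lie in the MHC on chromosome 17. In GRCm38.p6 coordinates, Tapbp spans 33919478 to 33929290, Tap1 34187556 to 34197225, Tap2 34204479 to 34216321, H2-Ab1 34263227 to 34269418, H2-Aa 34282744 to 34287823 and H2-Eb1 34305867 to 34316674. B2m lies on chromosome 2 (122147687 to 122153082), Nlrc5 on chromosome 8 (94434335 to 94527272) and Ciita on chromosome 16 (10480014 to 10531064). All of these are annotated as protein coding.

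The regulators Ciita and Nlrc5 act on short upstream sequences, so the 150 bases before the start of 4 members are shown with the letters of these boxes in capitals. The RefSeq promoter table, on GRCm38.p6, held 5 of the 10 members, and the sequences run 5′ to 3′ on the gene's strand. B2m is chr2:122147537-122147686 on the plus strand, Tap1 chr17:34187406-34187555 on the plus strand, H2-Aa chr17:34287824-34287973 on the minus strand and H2-Eb1 chr17:34305717-34305866 on the plus strand.
H2-Aa: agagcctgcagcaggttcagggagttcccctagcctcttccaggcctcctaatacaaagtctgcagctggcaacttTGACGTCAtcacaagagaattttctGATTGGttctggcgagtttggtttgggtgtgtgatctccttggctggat
H2-Eb1: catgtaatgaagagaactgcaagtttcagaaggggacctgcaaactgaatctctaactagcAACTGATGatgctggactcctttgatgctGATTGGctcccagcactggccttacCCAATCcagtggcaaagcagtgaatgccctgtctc
B2m: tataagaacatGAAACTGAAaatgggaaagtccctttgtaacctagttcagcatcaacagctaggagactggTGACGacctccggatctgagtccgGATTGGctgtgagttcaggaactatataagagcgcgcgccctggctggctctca
Tap1: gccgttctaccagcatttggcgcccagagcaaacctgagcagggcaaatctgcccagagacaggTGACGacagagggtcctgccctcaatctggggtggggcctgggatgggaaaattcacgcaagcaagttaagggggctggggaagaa

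The letters searched, on both strands of 250 upstream bases, were GATTGG (the Y box core), TGACG (the X2 box core), AACNGATG (an X1 box end) and GAAANNGAA (part of an interferon response element). GATTGG occurred in 14.6% of the 32851 promoters in the table, TGACG in 17.8%, AACNGATG in 1.98% and GAAANNGAA in 7.13%. H2-Aa held GATTGG from 49 to 44 bases before its start, and TGACG from 74 to 70 bases before it, where the letters on the other strand overlap it (71 to 67). B2m showed the same order, with TGACG from 78 to 74 and GATTGG from 54 to 49 bases before the start, and GAAANNGAA from 139 to 131. TGACG at most 30 bases before GATTGG, both on the gene's strand, is the arrangement in both of these promoters. It was found in 51 promoters, or 0.155%, and the same order on the other strand was not counted. H2-Eb1 held AACNGATG (89 to 82) and GATTGG (60 to 55), with a second GATTGG on the other strand (35 to 30) that overlaps none of these, and no TGACG in the window. Tap1 held TGACG from 86 to 82 bases before its start and GATTGG on the other strand (222 to 217), outside the bases shown. The starts of Tap1 and of Psmb9, an immunoproteasome subunit gene, lie 226 bases apart on opposite strands, at 34187556 and 34187330. The Tapbp promoter, also in the table, had none of these letters in the window. These matches are descriptions of letters and do not show that a factor was bound in these livers.

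The deposited values are levels on a log scale whose base is not stated, and they are strongly compressed between arrays. The SD over the 20 arrays was under 0.001 for 97.6% of probe sets, with a median of 1.07e-05, so that no difference can be read as a fold of RNA. Differences are therefore given as standardized differences: the mean of MSXH minus the mean of HFD, divided by the within-group SD of both diets together, and carry a 95% interval. The liver markers Alb, Apoa1 and Ttr were at 14.71, 14.61 and 14.48 in all 20 arrays. The arrays of MSXH 4 and MSXH 6 stood apart: the skeletal muscle genes Acta1 and Myh1 were at or above 10.46 and 10.79 there and at or below 6.49 and 6.23 in the other 18. Their array medians, at or above 6.5223, also lay above the 6.5217 that bounded the other arrays. The members' main results are also given without these 2 arrays. A percentile of level states where a probe set's signal lay on the array, and since probes differ in binding it does not rank transcripts by abundance.

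No member differed between the diets after adjustment. In limma's moderated test, 0 of the 22 member probe sets and 0 of all 34945 (0%) had a Benjamini-Hochberg adjusted p under 0.05, and the members' adjusted p ran from 0.215 to 0.999. The exact rank sum test, adjusted in the same way, also called 0 probe sets. At an unadjusted p under 0.05, 1 member probe set was higher in MSXH, against a background of 6.03% of all probe sets, and 1 was lower, against 4.69%. In direction alone, 13 of the 22 were higher and 9 lower (59.1% higher, against 53% of all probe sets), and their median standardized difference was 0.0555, against 0.0429 over all. In 0 members did the groups separate without overlap, as they did in 5 probe sets overall (0.0143%). The members' counts are thus near those of the array as a whole. These directions depend on scaling: with each array centred on its median, 1.56% of all probe sets and 1 of 22 members were higher, and with quantile normalization 5.72% and 3 of 22. Without MSXH 4 and 6 the shares of all probe sets were 95.9% with centring and 49% with quantile normalization, and 53.2% with neither, where 16 of the 22 members were higher. Directions below are those of the deposited values of all 20 arrays unless a scaling is named.

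**Figure D1:**
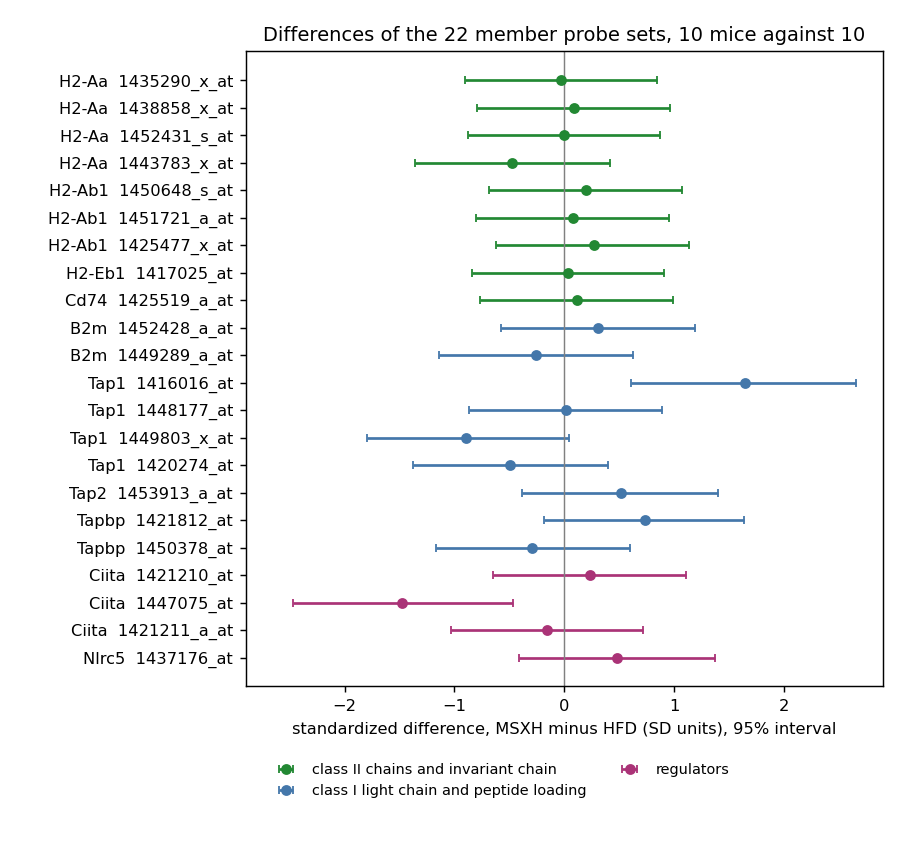
Standardized difference (MSXH minus HFD, in pooled SDs, horizontal axis) with its 95% interval for each of the 22 member probe sets, grouped by role. The Tap1 probe set 1416016_at (1.65) and the Ciita probe set 1447075_at (-1.48) have intervals clear of 0, and the class II probe sets lie between -0.479 and 0.267.

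For the class II chains and the invariant chain no difference between the diets was detected. H2-Aa, the alpha chain of the I-A molecule, had 4 probe sets. The highest, 1435290_x_at, ran from 8.5491 through a median of 8.5564 to 8.5622 in HFD mice and from 8.5455 through 8.5574 to 8.5635 in MSXH mice. The MSXH range enclosed the HFD range. The means were 8.5557 ± 0.00462 in HFD and 8.5556 ± 0.00563 in MSXH (SD, n = 10 each), a standardized difference of -0.0306 (-0.907 to 0.846), and when each MSXH mouse was set against each HFD mouse, the MSXH mouse was the higher in 52 of 100 pairs. The other H2-Aa probe sets gave 0.0869, -0.00303 and -0.479.

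H2-Ab1, the beta chain that pairs with H2-Aa, was at 7.4555, 7.4594 and 7.4626 (lowest, median and highest) in HFD and at 7.4543, 7.4601 and 7.4633 in MSXH on 1450648_s_at. Again the groups overlapped over the whole HFD range. Its standardized difference was 0.197 (-0.685 to 1.07), and its other probe sets gave 0.0778 and 0.267. H2-Eb1, the beta chain of the I-E molecule, ran from 7.6420 to 7.6453 in HFD and from 7.6418 to 7.6454 in MSXH, with a difference of 0.0331 (-0.844 to 0.909). In C57BL/6 mice I-E is not made because its alpha chain gene is defective, while the beta chain gene is intact. Cd74, on chromosome 18 (60803849 to 60812652), ran from 7.6415 to 7.6429 in HFD and from 7.6413 to 7.6432 in MSXH (0.114, -0.765 to 0.99). Over these 9 probe sets limma's adjusted p ran from 0.726 to 0.999, and their intervals, which together run from -1.36 to 1.14, leave room for differences of that size. Without MSXH 4 and 6 the differences were 0.232 for H2-Aa 1435290_x_at, 0.409 for H2-Ab1, 0.25 for H2-Eb1 and 0.349 for Cd74, and 8 of the 9 were above 0.

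On the deposited scale the class II probe sets had large SDs between mice. H2-Aa 1435290_x_at had an SD over all arrays of 0.00501, at the 99th percentile of all probe sets and at rank 352 of 34945. H2-Ab1 1450648_s_at (0.0025) and H2-Eb1 (0.00112) were at percentiles 98.5 and 97.6, and Cd74 (0.000543) at 96.3. The lowest were H2-Aa 1443783_x_at (0.000363, percentile 95.3) and H2-Ab1 1425477_x_at (0.000116, percentile 90.2). Probe sets of the same gene thus differed widely in SD, so these ranks do not measure how much a gene varied. The same mice were high and low on nearly every class II probe set. MSXH 9 was the highest MSXH mouse on 9 of 9 and MSXH 3 the lowest on 8 of 9. In HFD, mouse 6 was the highest on 7 of 9 and mouse 8 the lowest on 6 of 9.

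**Figure D2:**
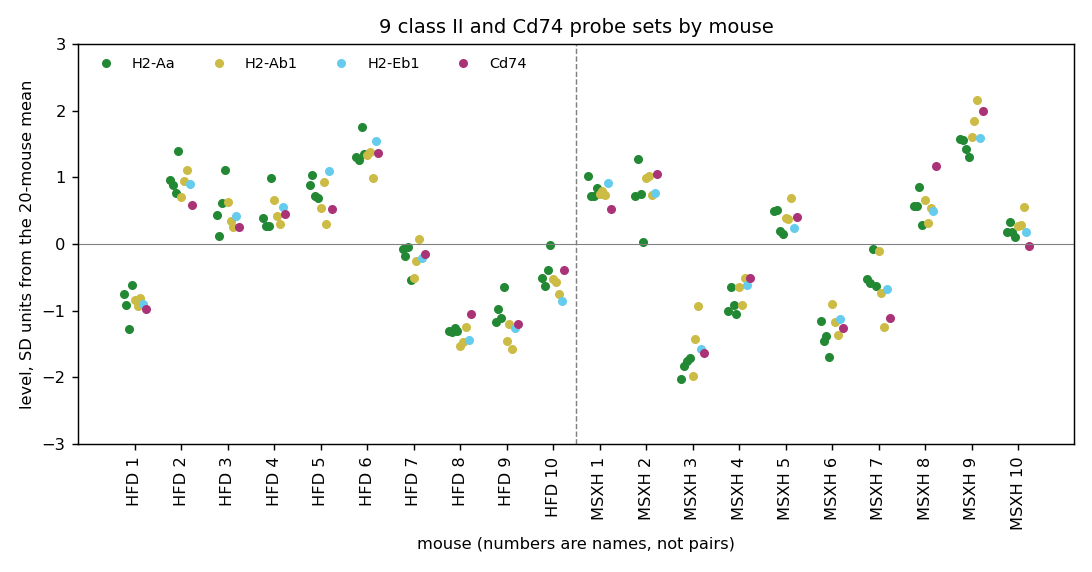
Levels of the 9 probe sets of the class II chains and Cd74 in each mouse, in SDs from the probe set's mean over all 20 arrays (vertical axis), with mice of each diet in label order on the horizontal axis. The probe sets rise and fall together from mouse to mouse, with MSXH 9 at the top and MSXH 3 at the bottom of the MSXH group, and both diets cover the same range.

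After the group means were taken off, the 36 pairs of class II probe sets correlated over the 20 mice with Pearson's r from 0.881 to 0.988 (median 0.948). Between genes, with 1 probe set each, r ran from 0.935 (H2-Ab1 with Cd74) to 0.98 (H2-Aa with H2-Eb1). Each of these 6 gene pairs had a permutation p of 1e-05, the smallest the 100000 permutations can give, and 7.5e-05 after adjustment over the 45 member pairs. Spearman's rho ran from 0.907 to 0.974, and without the 2 mice farthest from the median r stayed between 0.928 and 0.98. The relation held within each diet, with r from 0.969 to 0.992 in HFD and from 0.926 to 0.985 in MSXH. Some class II probe sets end in _x_at or _s_at, which mark probes that can bind related genes. H2-Eb1 and Cd74 do not carry these endings, and Cd74 is no member of the class II chain family. In bulk liver RNA, fewer class II cells and less class II RNA per cell cannot be told apart.

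B2m, the light chain of class I molecules, had 2 probe sets, both at the 99.8th percentile of level. On 1452428_a_at it ran from 13.590628 through 13.590634 to 13.590637 in HFD and from 13.590630 through 13.590634 to 13.590642 in MSXH. The medians were equal to the sixth decimal and the groups overlapped. The standardized difference was 0.311 (-0.576 to 1.19, limma adjusted p = 0.831), and the other probe set, 1449289_a_at, gave -0.258 (-1.14 to 0.626). Without MSXH 4 and 6 these were 0.458 and 0.163. Both B2m probe sets had low SDs on the deposited scale, 3.32e-06 and 3.3e-06 (percentiles 8.26 and 8.18). They still followed each other over the mice (r = 0.831, adjusted permutation p = 6e-05).

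Tap1, one subunit of the peptide transporter, had the largest standardized difference of the members. On 1416016_at the HFD mice ran from 7.532876 through a median of 7.532909 to 7.532991, and the MSXH mice from 7.532929 through 7.532980 to 7.533022. The lowest MSXH mouse lay above the HFD median, while HFD 4 (7.532991), HFD 5 (7.532979) and HFD 7 (7.532953) reached into the MSXH range. The means were 7.532921 ± 4e-05 in HFD and 7.532976 ± 2.51e-05 in MSXH (SD, n = 10 each), a difference of 5.5e-05 on the deposited scale. This is a standardized difference of 1.65 (0.605 to 2.66), and the MSXH mouse was higher in 86 of the 100 pairs. In limma its p was 0.00138, at rank 221 of all probe sets, and 0.215 after adjustment, so the difference did not pass. A permutation test of the 2 group means gave an unadjusted p of 0.00224. The difference was 1.54 to 2.13 with any 1 mouse left out and 1.81 without MSXH 4 and 6. It depends on scaling: it was -0.0649 with quantile normalization and -0.418 with centring of all 20 arrays, and 1.65 and 0.664 when MSXH 4 and 6 were left out first.

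The other Tap1 probe sets did not follow it. Their signals were at percentiles 24.2, 11 and 1.66 of level, and that of 1416016_at at 73.2. Their standardized differences were 0.0125 for 1448177_at, -0.893 for 1449803_x_at and -0.498 for 1420274_at. Over the mice, the 6 pairs of Tap1 probe sets had r from -0.16 to 0.243, with no adjusted p under 0.05. The difference on 1416016_at thus rests on that probe set alone.

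Tap2, the partner of Tap1, ran from 7.246632 through 7.246643 to 7.246657 in HFD and from 7.246626 through 7.246650 to 7.246666 in MSXH. The MSXH range enclosed the HFD range, and the difference was 0.514 (-0.385 to 1.4, limma adjusted p = 0.713), with MSXH higher in 65 pairs. Without MSXH 4 and 6 it was 0.738, or 0.349 with centring and 0.84 with quantile normalization. Tapbp, the tapasin gene, ran from 9.427237 through 9.427272 to 9.427312 in HFD and from 9.427263 through 9.427281 to 9.427331 in MSXH on 1421812_at. Its MSXH values were shifted up by 0.738 (-0.18 to 1.64) with MSXH higher in 67 pairs, which did not pass (limma adjusted p = 0.574). Without MSXH 4 and 6 the Tapbp difference was 0.916, or 0.453 with centring and 0.0102 with quantile normalization. The second Tapbp probe set, 1450378_at, gave -0.29 and correlated with the first by r = 0.265. Tap1, Tap2 and Tapbp did not vary together: their 3 pairs had r from -0.14 to 0.091.

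Ciita, the class II coactivator, had 3 probe sets, at percentiles 38.3, 19.7 and 17.5 of level. On 1447075_at the HFD mice ran from 6.048053 through 6.048058 to 6.048062 and the MSXH mice from 6.048034 through 6.048050 to 6.048059. Of the MSXH mice, 7 lay below the lowest HFD mouse and the other 3 within the HFD range. The difference was -1.48 (-2.47 to -0.467), with MSXH higher in 10 of 100 pairs, a limma p of 0.00339 and an adjusted p of 0.275. The permutation test gave an unadjusted p of 0.00154. Leaving out 1 mouse at a time gave -1.84 to -1.38, and leaving out MSXH 4 and 6 gave -1.96. With all 20 arrays it was -0.54 with centring and -0.823 with quantile normalization, where the medians over all probe sets were -0.524 and -0.6. With MSXH 4 and 6 left out first it was 0.274 and -0.644, where the medians over all were 0.316 and -0.0152. The other Ciita probe sets gave 0.234 on 1421210_at and -0.159 on 1421211_a_at, and no pair of Ciita probe sets correlated with an adjusted p under 0.05.

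Nlrc5, the class I coactivator, had 1 probe set. It ran from 8.0101 through 8.0103 to 8.0108 in HFD and from 8.0103 through 8.0104 to 8.0109 in MSXH. The groups overlapped over most of their range, and the difference was 0.483 (-0.414 to 1.37, limma adjusted p = 0.724), with MSXH higher in 65 pairs. Its SD, 0.000193, was at the 93rd percentile of all probe sets.

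**Figure D3:**
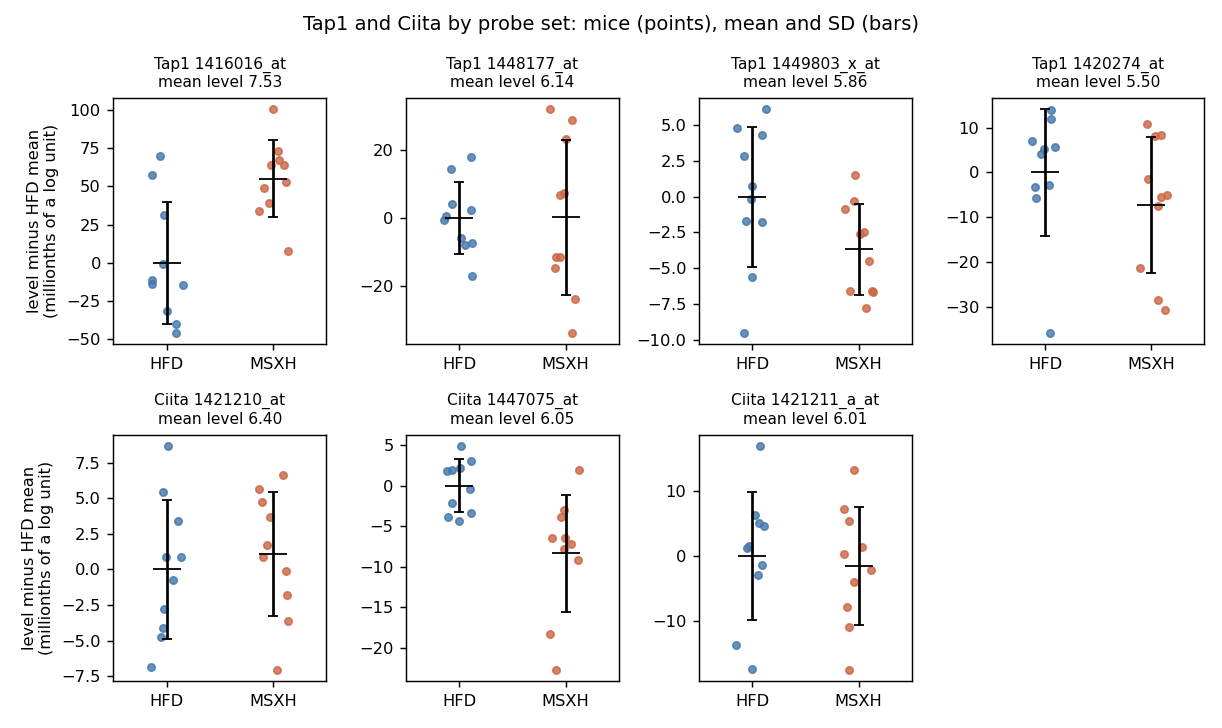
Levels of each Tap1 and Ciita probe set in the 10 HFD and 10 MSXH mice (points, with mean and SD as bars), as the difference from the HFD mean in units of 1e-06 on the deposited log scale (vertical axis). Tap1 1416016_at is shifted up in MSXH and Ciita 1447075_at down, and the other probe sets of the same genes have standardized differences between -0.893 and 0.234.

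The members fell into a class II block with B2m and Nlrc5 attached, while the transporter genes stood apart. B2m correlated with the class II genes by r = 0.656 (H2-Ab1) to 0.712 (H2-Eb1), with adjusted permutation p from 0.00489 to 0.0099. Nlrc5 correlated with them by r = 0.565 (H2-Ab1) to 0.661 (H2-Aa), with adjusted p from 0.00888 to 0.0393. Without MSXH 4 and 6 these relations moved by less than 0.2. With array centring B2m gave 0.324 with H2-Aa and 0.361 with H2-Ab1, while the class II gene pairs kept r from 0.825 to 0.979. The array medians ran from 6.5216 to 6.5226, far beyond the SD of B2m (3.32e-06). Centred B2m values thus follow the array medians, and centring cannot test the relations of B2m. Ciita correlated with the class II genes by r = 0.234 to 0.384, and none of these passed. Within the HFD mice its r with them was 0.652 to 0.775 and within the MSXH mice -0.155 to -0.0327; the difference between the diets was not tested. Tap1, Tap2 and Tapbp had no relation to any other member with an adjusted p under 0.05.

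**Figure D4:**
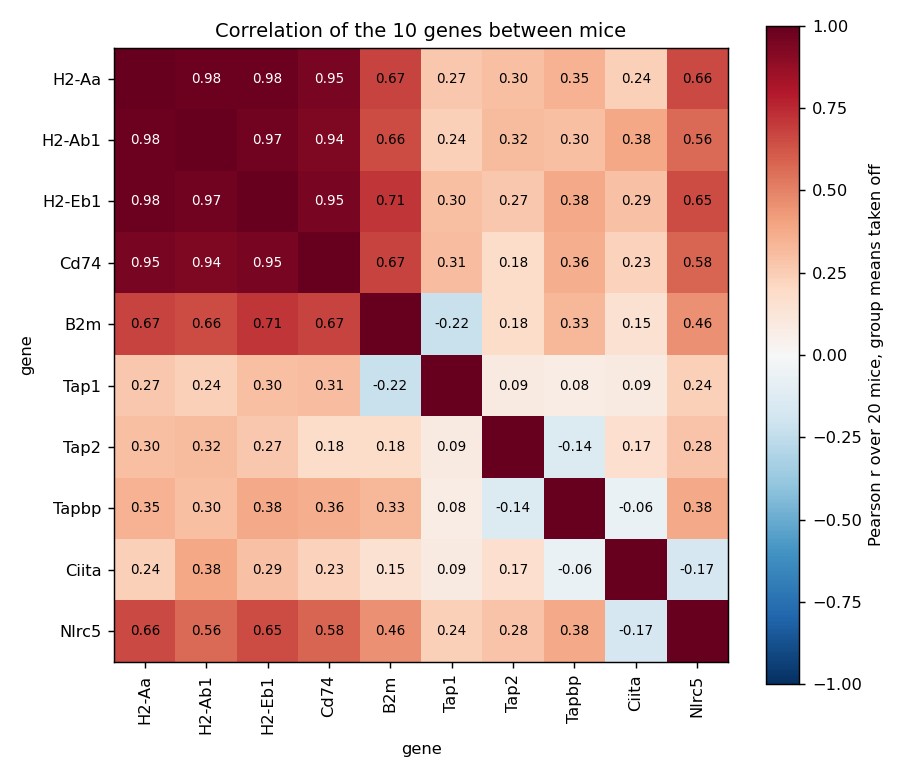
Pearson's r over the 20 mice, group means taken off, for all 45 pairs of the 10 members with 1 probe set each (colour scale from -1 to 1, values printed in the cells). The class II genes and Cd74 form a block of r from 0.935 to 0.98, B2m and Nlrc5 correlate with it from 0.565 to 0.712, and Tap1, Tap2, Tapbp and Ciita lie outside.

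The genes most like H2-Ab1 over the mice, among 17457 non-member probe sets above the median level, were Ctss (r = 0.888), Mpeg1 (0.876), Mndal (0.868), Acsl3 (0.863) and Gbp3 (0.86). Ctss is cathepsin S, which trims the invariant chain, and Mpeg1, a pore-forming protein of macrophages, is also on the list of macrophage markers used below. For B2m they were Lbr (0.886), Cyp2r1 (0.853), Gbp3 (0.852), Spred1 (0.85) and AW112010 (0.844). For Tap1 1416016_at the highest values were lower, with Ttl and Mindy1 at 0.766, Nfatc2 at 0.717, Zdhhc12 at 0.705 and Kbtbd4 at 0.679. These r are descriptions over the 20 mice, chosen as the highest of many.

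Since class II genes mark presenting cells, the levels of marker lists were set beside them. The macrophage and Kupffer cell level, the mean standardized level of 18 genes, ran from -0.687 through -0.135 to 0.886 in HFD and from -1.1 through 0.253 to 1.38 in MSXH, and the groups overlapped widely. The muscle-carrying arrays MSXH 6 (-1.1) and MSXH 4 (-0.977) had the lowest macrophage levels of the MSXH mice. Of the 25 macrophage probe sets 17 were higher in MSXH (68%, median 0.094), against 53% of all probe sets. Without MSXH 4 and 6 it was 23 (median 0.429), against 53.2% of all. With all arrays, centring gave 1 and quantile normalization 3, where 1.56% and 5.72% of all probe sets were higher. With MSXH 4 and 6 left out, centring gave 24 of 25 (95.9% of all) and quantile normalization 19 of 25 (49% of all). In the deposited values 1 of the 25 was higher at an unadjusted p under 0.05, against 6.03% of all probe sets. This was Itgam, an integrin of myeloid cells (1.44). H2-Ab1 followed this level with r = 0.801 and rho = 0.805 (permutation p = 2e-05 and 4e-05, adjusted over 36 relations 0.00072 and 0.00144). Within the diets r was 0.713 in HFD and 0.89 in MSXH, without the 2 mice farthest from the median H2-Ab1 level it was 0.79, without MSXH 4 and 6 0.796, and with array centring 0.597. B2m followed it with r = 0.662 (adjusted p = 0.045) and rho = 0.626 (adjusted p = 0.0779). Nlrc5 (r = 0.461, adjusted p = 0.4) and Tap1 (r = 0.161, adjusted p = 0.66) did not pass. With centring r was 0.939 for B2m, 0.943 for Nlrc5 and 0.937 for Tap1. Array medians differ by more than the spread of these probe sets, so the centred values cannot test the relations.

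No other marker list passed with H2-Ab1. Sinusoidal endothelial markers gave r = 0.487 (adjusted p = 0.4), dendritic cell markers 0.411 (adjusted p = 0.516), T and NK cell markers 0.26 and B cell markers 0.22. The part of macrophage content in the spread of the class II genes was not tested.

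**Figure D5:**
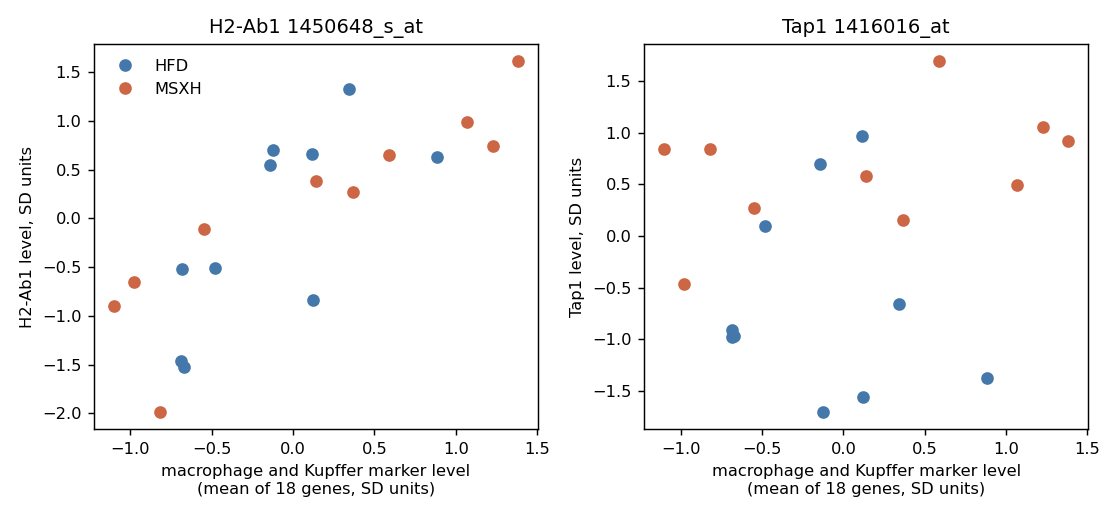
Levels of H2-Ab1 (left) and Tap1 1416016_at (right), in SDs from the mean over the 20 mice (vertical axes), against the mean standardized level of 18 macrophage and Kupffer cell markers (horizontal axes, in SDs) in each of the 20 mice, with HFD and MSXH in different colours. Mice with a higher macrophage level had a higher H2-Ab1 level in both diets (r = 0.713 in HFD and 0.89 in MSXH), and for Tap1 r over all mice was 0.161.

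The rest of the pathway was read from lists of 76 further genes, of which 15 had no probe set of their own, 10 of them because their probe sets carry several symbols. In every list 0 probe sets passed the adjusted p of 0.05. Beside the counts below, 53% of all probe sets were higher in MSXH, and 53.2% without MSXH 4 and 6. At an unadjusted p under 0.05, 6.03% of all were higher and 4.69% lower. Of the 5 probe sets of the immunoproteasome, which cuts peptides for class I, 4 were higher and 1 lower in MSXH (median 0.411). Psmb9, whose start faces that of Tap1, was higher in 83 of 100 pairs (1.31, 0.323 to 2.27, limma p = 0.00753, adjusted p = 0.316). Psmb8 (0.17 and 0.411), Psmb10 (0.531) and Psme1 (-0.1) did not reach an unadjusted p of 0.05. Under centring 1 of the 5 was higher and under quantile normalization 2 of 5, where 1.56% and 5.72% of all probe sets were. Without MSXH 4 and 6 it was 5 of 5, against 53.2% of all probe sets. With those arrays left out, centring gave 5 of 5 (95.9% of all) and quantile normalization 4 of 5 (49% of all). Over the 20 mice, r was 0.767 for Psmb8 with B2m, 0.676 for Psmb8 with H2-Ab1 and 0.702 for Psmb9 with Nlrc5. For Tap1 it was 0.352 with Psmb9 and 0.51 with Irf1. These pairs were chosen after values were seen, so their r are descriptions, given without a p.

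Interferon gamma signalling genes had 10 of 14 probe sets higher in MSXH (71.4%, median 0.127), against 53% of all probe sets. Under quantile normalization 2 of 14 were higher and under centring 0 of 14, where 5.72% and 1.56% of all probe sets were. Without MSXH 4 and 6 it was 10 of 14, against 53.2% of all probe sets. With those arrays left out, centring gave 14 of 14 (95.9% of all) and quantile normalization 8 of 14 (49% of all). In the deposited values 3 of the 14 were higher at an unadjusted p under 0.05 and 0 lower, against 6.03% and 4.69% of all probe sets. The 3 were Irf1, a transcription factor that interferon gamma induces (1.43, MSXH higher in 88 pairs), Ifngr2, a receptor subunit (1.37, 82 pairs), and Jak1, a receptor-bound kinase (0.934, 75 pairs). Their limma adjusted p were at least 0.282. The other Ifngr2 probe set gave 0.311 and the other Jak1 probe sets 0.154 and 0.00492, so these values rest on single probe sets. Ifng itself was at the 7.09th percentile of level and gave -0.47. Of the factors that bind the X and Y boxes, 10 of 23 probe sets were higher (median -0.0655). Among them 1 probe set reached an unadjusted p under 0.05 on the higher side, of the NF-Y subunit gene Nfyb (1.09, its other probe set 0.217), and 1 lower, of Nfya (-0.953). The other Nfya probe sets gave 0.741 and 0.795, so the probe sets of this gene disagree in sign. Nfyc gave 0.962 and Rfx5, which binds the X box, 0.516.

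Class I heavy chain and class I-like genes had 19 of 33 probe sets higher (median 0.107). On their probe sets of highest level, the classical heavy chains H2-K1 (13.01) and H2-D1 (12.46) had differences of 0.575 and 0.29. At an unadjusted p under 0.05, 1 probe set was higher, Cd1d2, a lipid-presenting molecule (1.1), and 1 lower, H2-K1 1450534_x_at (-1.19). The other H2-K1 probe sets gave 0.575, 0.617 and 0.274, so the probe sets of this gene disagree in sign. Heavy chain genes are near-identical copies of each other and these probe sets can bind several of them. Over the mice, r of B2m was 0.369 with H2-K1 and 0.126 with H2-D1, of the same chosen set of pairs.

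Among the endoplasmic reticulum loading partners 18 of 22 probe sets were lower in MSXH, with a median of -0.38. Of all 34945 probe sets 16427 were lower. Without MSXH 4 and 6 it was 17 of 22 lower, or 11 of 22 with centring and 13 of 22 with quantile normalization. In the same settings 16366, 1427 and 17815 of all 34945 probe sets were lower. The median of the list with centring was 0.00803, against 0.316 over all probe sets. Scaling all 20 arrays lowered nearly every probe set on the array, so the counts it gives for this list, 22 and 21 of 22, show nothing about the list. At an unadjusted p under 0.05, 1 was lower: Hspa5, the chaperone BiP (1447824_x_at, -1.58, -2.57 to -0.545, limma p = 0.00206, adjusted p = 0.232), whose other probe sets gave -0.514 and -0.643. Without MSXH 4 and 6 that Hspa5 value was -1.57, or 0.0314 with centring and 0.481 with quantile normalization. The medians over all probe sets in the scaled settings were 0.316 and -0.0152. Calreticulin (Calr) gave -0.391 to -0.422, calnexin (Canx) -0.55 to -0.711 and Pdia3, the disulfide isomerase of the loading complex, -0.369 and -0.291. Not all genes of the list were lower: Tapbpl gave 0.461 and 0.638, and Erap1 gave -0.156 and 0.0729. The 22 probe sets belong to 8 genes, with 6 of Sec61a1 alone, so the count is not one of independent genes. Ifi30, a lysosomal thiol reductase, was the highest of this list at 0.881 (limma p = 0.0597).

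For class II, the other genes of the family had 8 of 11 probe sets higher (median 0.285). Of the 11, 3 belong to H2-Ea, the I-E alpha gene, annotated as a transcribed pseudogene, which gave 0.8, 0.907 and -0.3. H2-DMb2, a chain of the peptide exchange factor H2-DM, was higher on 1443686_at at an unadjusted p under 0.05 (1.24, adjusted p = 0.333), while its other probe sets gave -0.0652 and 0.285. The list of endosomal processing, of cathepsins, legumain (Lgmn) and the ubiquitin ligase genes Marchf1 and Marchf8 (4 probe sets), had 9 of 16 probe sets higher (median 0.0936), and 13 of 16 without MSXH 4 and 6 (median 0.424). Cathepsin B (Ctsb) gave 0.832, 0.908 and 0.975 on 3 of its 5 probe sets, of which the last reached an unadjusted p under 0.05 (adjusted p = 0.436), and -0.271 and -0.0587 on the others. The value of 0.975 was 1.97 without MSXH 4 and 6. Cathepsin S (Ctss), the gene most like H2-Ab1 over the mice, gave -0.0327.

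In the marker lists of other cell types 0 probe sets passed after adjustment, and the single probe sets named here reached an unadjusted p under 0.05. Of all probe sets 53% were higher, and at that p 6.03% were higher and 4.69% lower. B cell markers had 16 of 23 probe sets higher (median 0.28), with Fcer2a at 1.27, Cd79b at 1.01, Fcmr at 1.01 and Ighm at -1.22. Without MSXH 4 and 6, 15 of the 23 were higher (53.2% of all probe sets). With those arrays left out, centring gave 23 (95.9% of all) and quantile normalization 9 (49% of all). The other Fcer2a probe set gave -0.902, and 6 of the 11 Ighm probe sets were above 0; the named Ighm value was -2.22 without MSXH 4 and 6. Sinusoidal endothelial markers had 9 of 18 higher (median 0.0387), with Clec4g at -1.16, Pecam1 at -1.14 and Oit3 at -0.988. That Clec4g probe set was at percentile 38.6 of level, and the other, at percentile 97.1, gave -0.182. T and NK cell markers had 7 of 18 higher (median -0.149), with Cd3d at 1.18, and dendritic cell markers 4 of 14 (median -0.207), with Zbtb46 at -1.14. Hepatocyte markers had 8 of 19 higher (median -0.275), with Cebpa at 1.58 and Ttr 1459737_s_at at 1.66. Stellate cell markers had 13 of 24 higher (median 0.0282), or 6 of 24 without MSXH 4 and 6, with Reln at -0.924 and its other probe set at 0.491. Skeletal muscle markers had 17 of 19 higher (median 0.659), or 12 of 19 without MSXH 4 and 6, with Myh1 at 1.02. Neutrophil markers had 5 of 8 higher (median 0.181), and S100a8 (0.861), the gene of smallest p, did not reach that p.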

How the data were processed

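Per the labels' protocols, biotin-labelled RNA made from total liver RNA was hybridised to Affymetrix 3' arrays, 1 per mouse. The deposited values were taken as log2 levels, although the base is not stated; they range from 5.17 to 15.01. How the authors normalized and summarized them is not given in the sources used here. Values were not changed before the test. Of 45101 probe sets, 34945 with 1 symbol in the platform's gene table were fitted (932 have several symbols and 9211 are not listed, and controls were left out); a gene table of GRCm38.p6 held 34741 of their gene IDs and changed 0 symbols.

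limma 3.58.1 (R 4.3.3; lmFit, eBayes with a trend on level) compared the 2 groups over all 34945 probe sets, two-sided, with Benjamini-Hochberg adjustment at 0.05, and was tested on simulated data. Intervals are 95% noncentral t intervals. Permutation tests used 100000 permutations, and correlations were computed on values with group means taken off and permuted within groups (Python 3.11.15, scipy 1.17.1). Relations were computed with 1 probe set per gene, that of the highest mean. Groups came from the sample titles; 0 array columns were identical. The labels state no pairing by replicate number, and mice were treated as unpaired. Same-numbered mice correlated from -0.229 to 0.117, with 2 of 10 over 0.1, which cannot show whether they were paired.

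All member probe sets are named. Of each list the genes at an unadjusted p under 0.05 are named, or otherwise the one of smallest p, and for H2-Ab1, Tap1 and B2m the 5 genes of highest r. Other named genes and the 12 relations with Psmb8, Psmb9, Irf1, H2-K1 and H2-D1 were chosen after their values were seen, and the relations of H2-Ab1, Tap1, B2m and Nlrc5 with marker levels were added after seeing the data. The members and lists were chosen with earlier results of these data known. Alternatives were both scalings, leaving out arrays, the replicate block, other eBayes settings, array weights, 1 probe set per gene, averaging the probe sets of a gene, probe sets above the median level, an adjusted p of 0.10, the rank sum test and the permutation test. The scalings of the lists, and the relations without MSXH 4 and 6 or with centring, were added after seeing the data.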

Additional observations from a re-analysis of the deposited data

Results flagged for a closer look

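In 44 groups of 10 mice (22 probe sets in 2 diets), 1 mouse stood apart from its group by Dixon's test, which by chance marks about 1 group in 20. On the Tap1 probe set 1420274_at, HFD 4 was at 5.500464, while the other HFD mice lay between 5.500494 and 5.500514. Its gap to the nearest mouse was 0.605 of the group's range. This probe set was at the 1.66th percentile of level, and HFD 4 was also the highest HFD mouse on Tap1 1416016_at.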

How the results depend on the processing

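The count of probe sets past limma's adjusted p was 0 under both scalings, the replicate block, array weights, other eBayes settings, both filters, an adjusted p of 0.10 and the rank sum test, and 0 to 1 with 1 array left out (1 without HFD 8 and 1 without MSXH 7, neither of them a member). At an unadjusted p under 0.05, 2108 probe sets were higher and 1638 lower; these were 21 and 156 with array centring, 19 and 2415 with quantile normalization, 170 and 60 without MSXH 4 and 6 with centring, 1197 and 785 with 1 probe set per gene, 1256 and 629 above the median level, and 1943 and 1553 with the replicate block. Leaving out 1 array gave 1727 to 2353 higher and 1407 to 1807 lower. Of the members, 1 was higher and 1 lower; higher were 0 with centring, 0 with quantile normalization, 2 without MSXH 4 and 6 with quantile normalization (Tap1 and Nlrc5) and 1 to 2 with 1 array left out; lower were 0 with centring, 2 with quantile normalization, 2 with the replicate block (Tap1 1449803_x_at beside Ciita), 0 without MSXH 4 and 6 with centring and 1 to 2 with 1 array left out. The labels do not say that replicate numbers pair mice, and the block left 0 adjusted calls.

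Array medians differ by more than the spread of most members, so centring moves low-spread probe sets together and takes their correlations near 1 (B2m with Tap1 0.998). Standardized differences turned sign as follows, the cause beyond this not tested. With centring they were H2-Aa 1438858_x_at -0.0145, H2-Ab1 1451721_a_at -0.0508, H2-Ab1 1425477_x_at -0.436, H2-Eb1 -0.181, Cd74 -0.26, B2m 1452428_a_at -0.523, Tap1 1416016_at -0.418, Tap1 1448177_at -0.524, Tap2 -0.515, Tapbp 1421812_at -0.489, Ciita 1421210_at -0.524, Nlrc5 -0.328, Cd1d2 -0.51, Psmb9 -0.00544, H2-DMb2 -0.503, Ctsb -0.44, Nfyb -0.252, Ifngr2 -0.193, Jak1 -0.483, Irf1 -0.0749, Itgam -0.519, Cd79b -0.464, Fcer2a -0.498, Fcmr -0.489, Cd3d -0.52, Cebpa -0.0528, Ttr -0.525, S100a8 -0.0155 and Myh1 -0.486. With quantile normalization they were H2-Ab1 1451721_a_at -0.0181, H2-Ab1 1425477_x_at -0.48, H2-Eb1 -0.231, Cd74 -0.312, B2m 1452428_a_at -0.447, B2m 1449289_a_at 0.447, Tap1 1416016_at -0.0649, Tap1 1448177_at -0.608, Tap2 -0.197, Tapbp 1421812_at -0.58, Ciita 1421210_at -0.584, Nlrc5 -0.0075, Cd1d2 -0.658, H2-DMb2 -0.634, Ctsb -0.504, Nfyb -0.418, Jak1 -0.201, Itgam -0.588, Cd79b -0.751, Fcer2a -0.722, Fcmr -0.629, Cd3d -0.835, Cebpa -1.48 and Myh1 -0.509. Without MSXH 4 and 6 they were H2-Aa 1435290_x_at 0.232, H2-Aa 1452431_s_at 0.288 and B2m 1449289_a_at 0.163, with centring H2-Aa 1435290_x_at 0.248, H2-Aa 1452431_s_at 0.372, B2m 1449289_a_at 0.32, Tap1 1449803_x_at 0.3, Tap1 1420274_at 0.303, Tapbp 1450378_at 0.309, Ciita 1447075_at 0.274, Ciita 1421211_a_at 0.312, H2-K1 0.196, Hspa5 0.0314, Nfya 0.287, Zbtb46 0.277, Ighm 0.297, Pecam1 0.0715, Oit3 0.262 and Clec4g 0.185, and with quantile normalization H2-Aa 1435290_x_at 0.181, H2-Aa 1452431_s_at 0.249, B2m 1452428_a_at -0.422, Ciita 1421211_a_at 0.0848, H2-K1 0.656, Hspa5 0.481, Nfya 0.00502, Cd79b -0.682, Fcer2a -0.398, Cd3d -1.11, Pecam1 0.217 and Cebpa -1.28. Array weights turned H2-Aa 1435290_x_at 0.192 and H2-Aa 1452431_s_at 0.216, and the mean of its probe sets gave Ciita -0.631. Leaving out 1 array turned the sign of 8 member probe sets, all near 0: H2-Aa 1435290_x_at -0.213 to 0.209, H2-Aa 1438858_x_at -0.0808 to 0.316, H2-Aa 1452431_s_at -0.162 to 0.201, H2-Ab1 1451721_a_at -0.127 to 0.246, H2-Eb1 1417025_at -0.144 to 0.217, Cd74 1425519_a_at -0.104 to 0.317, Tap1 1448177_at -0.202 to 0.25, Ciita 1421211_a_at -0.397 to 0.0428. The other 14 members kept their sign. The relation of H2-Ab1 with the macrophage level was 0.796 without MSXH 4 and 6 and 0.597 with centring. No depth is known for arrays; the deposited compression limits every value to a standardized scale.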
